A study of Homo sapiens with 14 samples.

Results

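HCC70 cells given 10 µM ursolic acid were compared directly with HCC70 cells given 5 µM for the same time, without the vehicle as the divisor. The members are 4 of the 14 RNA-seq libraries of the study, which form 2 pairs: 10 µM and 5 µM at 24 h, and 10 µM and 5 µM at 48 h. A gene entered a pair when its level was above 1 FPKM (fragments per kilobase of exon, scaled to the mapped fragments of the library, so a level per length) in either library, which took 11866 genes at 24 h and 11781 at 48 h of the 34999 gene symbols in the files. At the edge of that filter BDKRB1 entered at 24 h with 1.01 FPKM and SEPTIN7P2 stayed out with 1 FPKM, and at 48 h the same values held for ASAH2B and ZNF354B. The study asked whether ursolic acid and digoxin, plant compounds proposed as antagonists of the nuclear receptor RORγ, act on prostate and breast cancer cells through that receptor, and its other HCC70 libraries are 1 vehicle library at each time. HCC70 is an established human line of triple-negative breast cancer (TNBC), grown here as wild type in RPMI-1640 with serum, and every group is 1 library of cultured cells. With 1 library per condition there is no replicate error, no test was made, and every value below describes these libraries only.

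Ursolic acid is a pentacyclic triterpenoid of fruit peel and many herbs. RORγ is a nuclear receptor best known for driving the IL-17 program of T helper cells, and its ligand pocket binds sterols. TNBC cells lack the estrogen and progesterone receptors and ERBB2 amplification, and basal lines such as HCC70 express keratins of the basal layer together with inflammatory chemokines.

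The HCC70 label was set beside marker genes. All 8 basal breast markers were above 1 FPKM, with summed levels between 1670.0 and 5110 FPKM in the 4 treated libraries. Of 9 luminal and ERBB markers 4 were above 1 FPKM, PGR was at 0 in every library, and ESR1 was at 0.68 FPKM in 10 µM cells and 0.56 FPKM in 5 µM cells at 24 h. Blood cell markers were limited to CD68, which many tumor cells express, and CD3D and HBB were at 0. Each library listed between 11216 and 11627 genes above 1 FPKM. The 13 protein-coding genes of the mitochondrial genome held 34.3% of summed FPKM in 10 µM cells and 31.2% in 5 µM cells at 24 h, and 28.9% in 10 µM cells and 42.7% in 5 µM cells at 48 h. FPKM are shares of a near-fixed total, so at 48 h this difference weighs on the ratio of every other gene, and its part in the results was not tested beyond the rescaling given with other settings.

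The step from 5 to 10 µM set far more genes apart at 48 h than at 24 h. Ratios were taken as log2 of (FPKM + 0.1) in 10 µM cells over (FPKM + 0.1) in 5 µM cells. At 24 h, 203 genes were past 2-fold higher in 10 µM cells (1.71% of those tested) and 243 past 2-fold lower (2.05%). At 48 h, 559 genes were past 2-fold higher (4.74%) and 1072 past 2-fold lower (9.10%). For scale, the vehicle libraries of 48 and 24 h, both without ursolic acid, were 2-fold apart at 411 of 11816 genes (3.48%). That is close to the 3.76% between the doses at 24 h and below the 13.8% between them at 48 h, but those vehicles differ in culture time. Between 5 µM and vehicle of the same time, 207 of 11815 genes (1.75%) were 2-fold apart at 24 h. At 48 h these were 277 of 11773 (2.35%), so both shares lay below those between the doses. The median over all genes tested was -0.13 at 24 h and -0.12 at 48 h, so that an average gene sat slightly lower in 10 µM cells, and gene lists below are read against that shift. After centring on it, 263 genes were higher and 172 lower at 24 h, against 203 and 243 before, so the balance of directions at 24 h depends on the scaling. Centring gave 712 higher and 826 lower at 48 h.

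The 2 pairs share no library, and the genes at their edges overlapped. Over the 11509 genes tested at both times the ratios correlated across genes with r = 0.44 (Spearman's rho = 0.47), a description in which genes are not independent points. Past 2-fold higher at both times were 82 genes, which is 50.3% of the 24 h set and 17.4% of the 48 h set within those genes. Past 2-fold lower at both times were 78 genes, which is 46.2% of the 24 h set and 7.60% of the 48 h set. Most went further with time: 64 of the 82 and 66 of the 78 had the larger ratio at 48 h. In opposite directions were 29 symbols, but these held only 18 distinct sets of values, since copies of 5.8S ribosomal RNA and of U1 small nuclear RNA carried the same value under several symbols. The 8 of them above 5 FPKM at both times were all small RNAs and held 3 distinct sets of values.

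**Figure D1:**
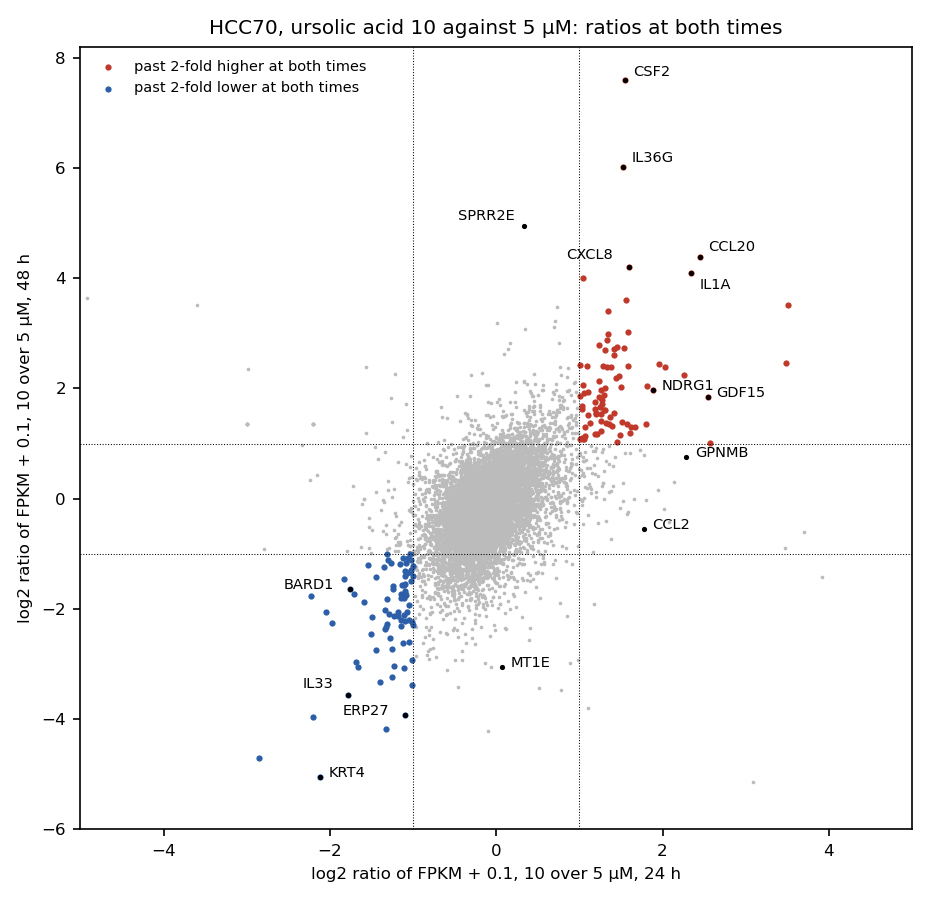
Each point is 1 of 11509 genes, with its log2 ratio of FPKM + 0.1 in 10 µM over 5 µM cells at 24 h on the x axis and at 48 h on the y axis. Red points (82) were past 2-fold higher and blue points (78) past 2-fold lower at both times, and dotted lines mark 2-fold.

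Secreted signals that call in neutrophils and monocytes were among the genes furthest above at 10 µM. Of 14 chemokines listed, 12 were expressed, and 6 of them were past 2-fold higher in 10 µM cells at 24 h (against 1.71% of all genes) and 5 at 48 h (41.7% of the 12, against 4.74%), with none past 2-fold lower. Their median log2 ratio was 1.12 at 24 h and 0.71 at 48 h. CXCL8 (IL-8), the main human neutrophil attractant, stood at 185 FPKM in 10 µM cells and 61.4 FPKM in 5 µM cells at 24 h, and at 1568 and 84.8 FPKM at 48 h. That is a 3.02-fold difference at 24 h and an 18.5-fold difference at 48 h. CXCL1, a related ligand of the receptor CXCR2, had 1693 FPKM in 10 µM cells and 668 FPKM in 5 µM cells at 24 h, and 3930.1 and 494 FPKM at 48 h. In the vehicle libraries CXCL1 was at 588 FPKM at 24 h and 242 FPKM at 48 h, so that it was the lowest of the 3 doses at each time. CCL20, the ligand of CCR6 on Th17 cells and dendritic cells, had 12.8 FPKM in 10 µM cells and 2.25 FPKM in 5 µM cells at 24 h, and 36.6 and 1.66 FPKM at 48 h. CXCL2 and CXCL3 were past 2-fold higher at both times, with ratios of 1.28 and 1.95 at 24 h and 2.42 and 2.45 at 48 h. CXCL5 (0.96 and 0.90) and CXCL6 (0.23 and 0.51) stayed within 2-fold.

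The genes of the chemokine cluster on chromosome 4 lie in one stretch of hg38, from CXCL8 at chr4:73740519-73743716 to CXCL2 at chr4:74097040-74099196. The promoters of 5 members are shown because they share the letters of an NF-κB site shortly before the start. NF-κB is a textbook activator of these genes, and its part in these differences was not tested. The stretches below come from the RefSeq promoter windows (GRCh38.p14, 250 bases before to 50 after each start), read on the strand of the gene, and capitals mark the searched κB letters GGAATTTCC. The match begins 78 bases before the start of CXCL1 (chr4:73869275-73869363, plus strand), 77 before CXCL2 (chr4:74099224-74099312, minus strand), 78 before CXCL3 (chr4:74038719-74038807, minus strand), 91 before CXCL8 (chr4:73740438-73740526, plus strand) and 90 before CXCL5 (chr4:73998719-73998807, minus strand).
CXCL1: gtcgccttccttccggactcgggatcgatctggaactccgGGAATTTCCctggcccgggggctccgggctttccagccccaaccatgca
CXCL2: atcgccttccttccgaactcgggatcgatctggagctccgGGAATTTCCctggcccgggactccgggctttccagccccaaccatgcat
CXCL3: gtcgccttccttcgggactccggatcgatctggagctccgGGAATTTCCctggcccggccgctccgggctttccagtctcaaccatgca
CXCL8: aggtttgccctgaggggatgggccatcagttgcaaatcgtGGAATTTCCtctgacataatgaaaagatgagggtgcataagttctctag
CXCL5: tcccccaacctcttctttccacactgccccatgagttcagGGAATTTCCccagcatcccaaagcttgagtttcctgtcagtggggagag
Those letters, on either strand, stood in 8 of the 10 chemokine windows found and in 129 of all 27305 windows (0.472%). CXCL5 and CXCL6 held them and stayed within 2-fold. CXCL10 and CXCL11 also held them but were under 1 FPKM in all 4 treated libraries, so the letters alone did not mark the genes that differed. Windows were matched by symbol for 396 of the 559 genes past 2-fold higher at 48 h, and 10 of those held the letters (2.53%). The near-identical flanks of CXCL1, CXCL2 and CXCL3 show how alike these copies are, and how reads common to such copies were shared out is not given in the sources used here.

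CCL2 and CCL5 did not follow the cluster. CCL2 (MCP-1), the main monocyte attractant, lies on chromosome 17 and had 563 FPKM in 10 µM cells and 164 FPKM in 5 µM cells at 24 h, a ratio of 1.78. At 48 h it had 344 FPKM in 10 µM cells and 504 FPKM in 5 µM cells, a ratio of -0.55, and the vehicle was at 235 FPKM. The dose order thus differed between the times for CCL2: 10 µM was the highest library at 24 h and 5 µM at 48 h. CCL5 (RANTES) was level at 24 h (0.08) and about 2-fold lower in 10 µM cells at 48 h, with 21.9 against 43.8 FPKM.

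The interleukin-1 family was split, with 5 of 8 expressed members higher in 10 µM cells at 24 h and 4 of 8 at 48 h. IL1A, an alarmin cytokine, had 9.71 FPKM in 10 µM cells and 1.83 FPKM in 5 µM cells at 24 h, and 78.2 and 4.46 FPKM at 48 h. Its neighbour IL1B had 8.61 and 2.90 FPKM at 24 h, and 58.3 and 8.69 FPKM at 48 h. IL36G, an epithelial member of the family in the same cluster of chromosome 2, had 20.1 FPKM in 10 µM cells and 0.21 FPKM in 5 µM cells at 48 h, and the receptor antagonist IL1RN had 17.9 and 5.09 FPKM. These members had their larger ratio at 48 h, and others lay the other way. IL33, a nuclear alarmin of epithelial barriers, had 0.41 FPKM in 10 µM cells and 1.65 FPKM in 5 µM cells at 24 h, and 0.03 and 1.43 FPKM at 48 h. IL18, whose product is an inflammasome substrate like that of IL1B, had 2.60 FPKM in 10 µM cells and 15.2 FPKM in 5 µM cells at 48 h. Thus 4 of the 8 expressed members were past 2-fold higher at 48 h and 2 past 2-fold lower, where all genes gave 4.74% and 9.10%. IL36G passed the filter at 48 h only through the 10 µM library, and IL33 at both times only through the 5 µM library. The filter thus set the direction of these genes, and 6 members were above 1 FPKM in both 48 h libraries.

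CSF2 (GM-CSF), the growth factor of granulocytes and macrophages, held the largest named ratio at 48 h, 7.60, with 36.8 FPKM in 10 µM cells and 0.09 FPKM in 5 µM cells. At 24 h it was at 1.30 and 0.38 FPKM. A level under 0.1 FPKM is below the pseudocount, which then sets much of the size of the ratio. LIF, a cytokine of the IL-6 family, was well above that floor, with 64.4 FPKM in 10 µM cells and 25.2 FPKM in 5 µM cells at 24 h, and 291 and 27.4 FPKM at 48 h. IL23A, the subunit that makes IL-23 specific, was level at 24 h (0.64 and 0.72 FPKM) and had 14.8 FPKM in 10 µM cells and 0.76 FPKM in 5 µM cells at 48 h. IL6 itself had 7.78 and 3.48 FPKM at 24 h, and 3.19 and 2.95 FPKM at 48 h, so its step was seen at 24 h alone. CSF1, the macrophage growth factor, was the 1 member past 2-fold lower at 48 h (-1.06). The list median was 1.23 at 24 h and 2.71 at 48 h, over 6 and 7 expressed members. CSF2 and IL23A passed the filter at 48 h only through the 10 µM library. Over the 5 members above 1 FPKM in both 48 h libraries the median was 1.37, so its size depends on the filter.

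PTGS2 (COX-2), which makes the precursor of prostaglandins, had 283 FPKM in 10 µM cells and 96.0 FPKM in 5 µM cells at 24 h, and 1030.1 and 84.9 FPKM at 48 h. It was alone in its list: of 9 expressed prostaglandin and phospholipase genes at 24 h and 8 at 48 h no other was past 2-fold higher, and the secreted phospholipase PLA2G2A was lower in 10 µM cells at 48 h, with 1.63 against 8.92 FPKM. TNF had 6.81 FPKM in 10 µM cells and 2.68 FPKM in 5 µM cells at 24 h, and 22.2 and 3.32 FPKM at 48 h. Of 14 expressed NF-κB subunits and feedback inhibitors none was past 2-fold at 24 h, and 3 were past 2-fold higher at 48 h (21.4%, against 4.74% of all genes), namely NFKBIA, NFKBIZ and TNFAIP3. NFKBIA, which holds NF-κB in the cytoplasm, had 384 FPKM in 10 µM cells and 133 FPKM in 5 µM cells, and TNFAIP3 (A20), a ubiquitin editor, had 23.3 and 5.85 FPKM. The subunits NFKB1 (-0.13) and RELA (0.63) and the inhibitor TNIP3 (-0.20) were within 2-fold.

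Immediate early genes lay in 1 direction at 48 h. All 14 expressed AP-1, EGR and related genes were higher in 10 µM cells at 48 h, 8 of them past 2-fold (57.1%, against 4.74% of all genes), and 11 were higher at 24 h, 1 past 2-fold (7.14%, against 1.71%). FOSL1, an AP-1 subunit, had 34.2 FPKM in 10 µM cells and 21.1 FPKM in 5 µM cells at 24 h, and 83.2 and 22.1 FPKM at 48 h. IER3, an early response gene that also serves in MAP kinase feedback, had 475 and 282 FPKM at 24 h, and 2033 and 286 FPKM at 48 h. HBEGF, a ligand of the EGF receptor, had 30.1 and 12.7 FPKM at 24 h, and 78.6 and 11.3 FPKM at 48 h. The ligand was thus past 2-fold while its receptor was not, since EGFR had 43.4 FPKM in 10 µM cells and 35.2 FPKM in 5 µM cells. In the EGF receptor family and its ligands 5 of 8 expressed genes were higher at 48 h and 3 lower. Of 16 expressed MAP kinase feedback genes 14 were higher at 48 h, 7 past 2-fold (43.8%, against 4.74% of all genes). Among the 7 were the phosphatases DUSP1 (1.98), DUSP5 (1.77) and DUSP6 (1.58), and IER3 is counted in this list and in the immediate early list.

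**Figure D2:**
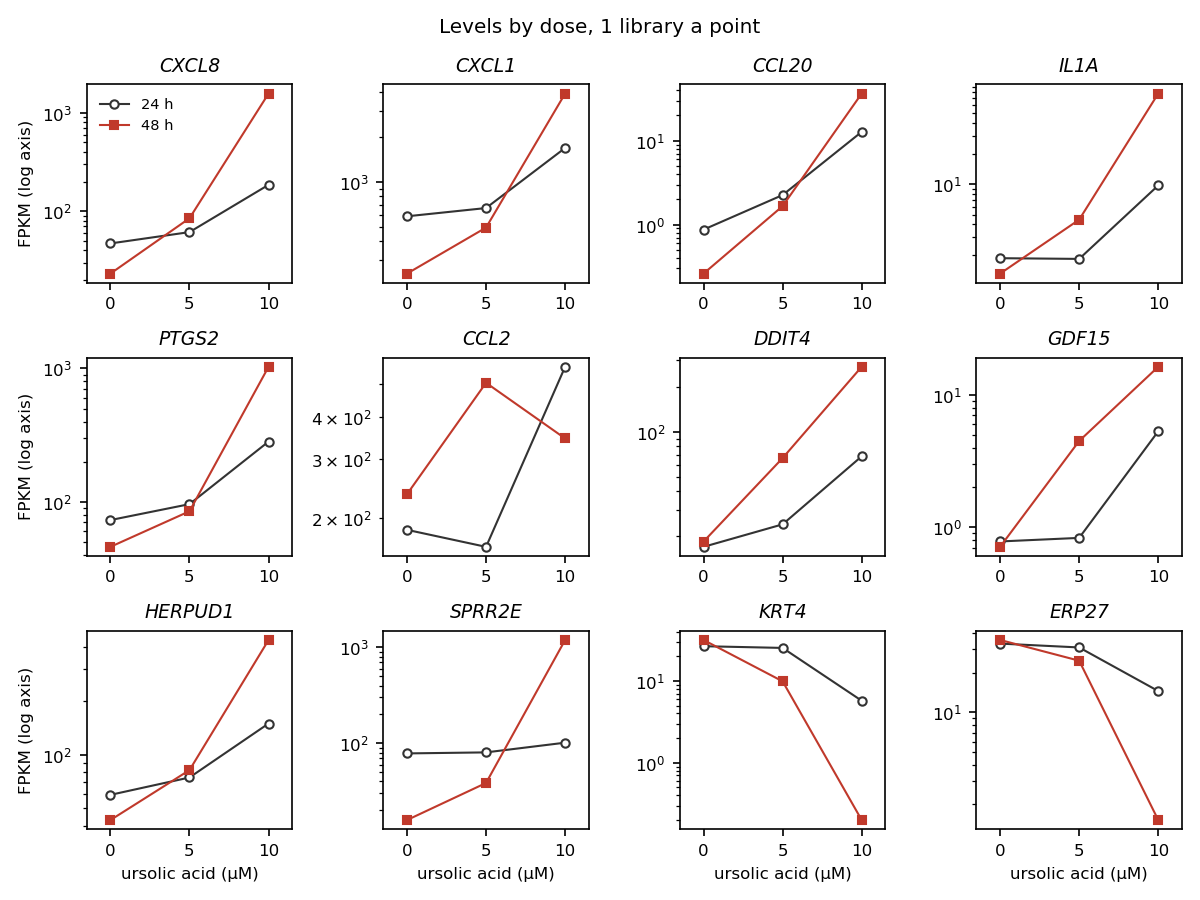
Each panel gives the FPKM of a gene (log axis) in vehicle (0), 5 µM and 10 µM ursolic acid cells, with open circles at 24 h and filled squares at 48 h, 1 library a point. CXCL8 reached 1568 FPKM at 10 µM and 48 h, CCL2 was highest at 5 µM at 48 h, and KRT4 and ERP27 were lowest at 10 µM.

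The integrated stress response, in which phosphorylated eIF2α favours translation of ATF4 and its target genes had higher mRNA levels of most members in 10 µM cells at both times. Of 20 regulators and targets, all expressed, 17 were higher in 10 µM cells at 24 h and 17 at 48 h, with 6 and 10 past 2-fold, where all genes gave 1.71% and 4.74%, and the medians were 0.79 and 0.90. GDF15, a stress hormone of the TGF-β family, had 5.32 FPKM in 10 µM cells and 0.83 FPKM in 5 µM cells at 24 h, the highest ratio named at that time (2.54), and 16.4 and 4.49 FPKM at 48 h. DDIT4 (REDD1), an inhibitor of mTORC1, had 68.5 and 24.1 FPKM at 24 h, and 272 and 66.7 FPKM at 48 h. DDIT3 (CHOP), a transcription factor of this response, had 15.2 and 5.75 FPKM at 24 h, and 26.9 and 10.7 FPKM at 48 h. In these genes the 5 µM library sat nearer to the vehicle than to 10 µM at 24 h and well above the vehicle at 48 h: DDIT3 in the vehicle was at 4.25 FPKM at 24 h and 2.74 FPKM at 48 h. ATF4 mRNA itself was within 2-fold (0.54 and 0.63). EIF2AK2 (PKR), an interferon-induced kinase of eIF2α, was the 1 member past 2-fold lower, at 48 h (-1.06).

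Genes further along the ATF4 program were less uniform. The asparagine synthetase gene ASNS had ratios of 0.87 at 24 h and 0.51 at 48 h. Serine, asparagine and one-carbon synthesis genes had a median of 0.32 at 24 h, with 12 of 15 higher in 10 µM cells, and of -0.15 at 48 h, with 5 of 15 higher, which is near the median of all genes. PSAT1, a serine synthesis enzyme, had 61.8 FPKM in 10 µM cells and 76.8 FPKM in 5 µM cells at 48 h, with the vehicle at 45.8 FPKM, so the 5 µM library was the highest. The cystine transporter gene SLC7A11 had 4.91 and 2.23 FPKM at 24 h, and 9.95 and 2.54 FPKM at 48 h. Cytosolic tRNA synthetases had medians of 0.04 and -0.22, with CARS1 past 2-fold higher (1.29) and FARSB past 2-fold lower (-1.60) at 48 h. In the unfolded protein response list 18 of 23 genes were higher at 24 h and 21 of 23 at 48 h, where 66.8% and 58.8% of all genes were lower. Past 2-fold higher were 1 at 24 h (4.35%, against 1.71% of all genes) and 3 at 48 h (13.0%, against 4.74%). The 48 h median was 0.32, and 0.01 once mitochondrially encoded genes were left out of the scale. HERPUD1, a component of ER-associated degradation, had 149 FPKM in 10 µM cells and 74.4 FPKM in 5 µM cells at 24 h, and 438 and 81.9 FPKM at 48 h. HSPA5 (BiP), the main ER chaperone, stood at 207 and 112 FPKM at 48 h. ERP27, a disulfide isomerase family member without catalytic cysteines, went the other way, with 14.5 FPKM in 10 µM cells and 31.1 FPKM in 5 µM cells at 24 h, and 1.52 and 24.6 FPKM at 48 h.

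CHAC1, which degrades glutathione, and HERPUD1 are shown because both were past 2-fold higher at 48 h and both windows hold the core letters of the CARE element bound by ATF4 (TGATGCAA, here as its reverse complement, in capitals). The match begins 209 bases before the start of CHAC1 (chr15:40953222-40953309, plus strand) and 176 before that of HERPUD1 (chr16:56931926-56932013, plus strand).
CHAC1: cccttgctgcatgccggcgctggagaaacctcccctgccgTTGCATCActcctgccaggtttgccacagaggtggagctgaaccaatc
HERPUD1: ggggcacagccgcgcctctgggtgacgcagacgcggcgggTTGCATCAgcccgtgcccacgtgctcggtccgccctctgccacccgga
The letters stood in 3 of 18 windows of the stress response list, in 6 of 16 of the tRNA synthetases and in 0.92% of all windows. The tRNA synthetases had a 48 h median of -0.22. In the unfolded protein response list HERPUD1 held the letters in the 1 such window of 21. Of windows of genes past 2-fold higher at 48 h 7 of 396 held them (1.77%), against 6 of 820 of those past 2-fold lower (0.73%) and 0.49% of expressed genes.

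Ferritin and metallothionein genes carried some of the largest absolute differences. FTH1, the heavy chain of the iron store ferritin, had 17884 FPKM in 10 µM cells and 9194 FPKM in 5 µM cells at 24 h, and 49966 and 13104 FPKM at 48 h. It alone held 5.67% of summed FPKM in 10 µM cells and 1.48% in 5 µM cells at 48 h. In the list of NRF2 and glutathione genes 1 of 24 expressed members was past 2-fold higher at 24 h (4.17%, against 1.71% of all genes) and 9 at 48 h (37.5%, against 4.74%), and none was past 2-fold lower. SQSTM1 (p62), an autophagy receptor that also releases NRF2 from KEAP1, was the 1 at 24 h, with 448 and 157 FPKM. TXNRD1 (thioredoxin reductase) had 161 FPKM in 10 µM cells and 57.5 FPKM in 5 µM cells at 48 h, whereas the common NRF2 targets NQO1 (0.37) and GCLM (0.23) were within 2-fold. AKR1C1 and AKR1C2, aldo-keto reductases of closely similar sequence, had ratios of 1.34 and 2.09 at 48 h. MT2A, a metal-binding metallothionein, had 2471 and 1198 FPKM at 24 h, and 5534 and 1325 FPKM at 48 h. Its chromosome 16 neighbours MT1X (1.80) and MT1F (1.49) were also past 2-fold higher at 48 h. MT1E, in the same cluster, was past 2-fold lower, with 0.55 FPKM in 10 µM cells and 5.31 FPKM in 5 µM cells. It passed the 48 h filter only through the 5 µM library. Of 7 expressed metallothionein and zinc exporter genes 3 were past 2-fold higher at 48 h (42.9%, against 4.74% of all genes). Past 2-fold lower were 2 (28.6%, against 9.10%), and the median was 0.20. Metallothionein genes are similar enough in sequence that reads may be shared between them.

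Genes that low oxygen induces through HIF were higher at 10 µM, although no library was labelled hypoxic. Of 29 expressed glycolysis and hypoxia-inducible genes 22 were higher at 24 h and 28 at 48 h, with 6 and 10 past 2-fold, where all genes gave 1.71% and 4.74%. NDRG1 had 418 FPKM in 10 µM cells and 113 FPKM in 5 µM cells at 24 h, and 1321 and 338 FPKM at 48 h. SLC2A1, the glucose transporter GLUT1, had 90.3 and 43.5 FPKM at 24 h, and 247 and 65.1 FPKM at 48 h. VEGFA, which drives blood vessel growth, had 367 and 129 FPKM at 48 h, and the carbonic anhydrase gene CA9 had 79.6 and 22.0 FPKM. The inducible members led the list, while core enzymes of glycolysis differed little, such as ENO1 (0.12) and PKM (0.02). The muscle phosphofructokinase PFKM was the 1 member past 2-fold lower, at 48 h (-1.23).

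Genes of cholesterol synthesis were all higher in 10 µM cells at 24 h and in both directions at 48 h. The study followed this pathway in the same 5 µM library as a program of RORγ, so the list is no independent evidence of its direction. All 21 enzymes were higher in 10 µM than in 5 µM cells at 24 h, none past 2-fold, with a median of 0.48, against -0.13 for all genes. At 48 h 7 were higher and 14 lower, with a median of -0.05 before centring and 0.07 after it, so no direction is given for that time. SQLE (squalene epoxidase) had 92.5 FPKM in 10 µM cells and 53.5 FPKM in 5 µM cells at 24 h, and 95.3 and 98.4 FPKM at 48 h. At 24 h the 5 µM library was the lowest of the 3 doses for SQLE, since the vehicle held 71.5 FPKM. MSMO1, a sterol methyl oxidase, had the largest step of the enzymes at 24 h, 73.9 FPKM in 10 µM cells and 40.1 FPKM in 5 µM cells.

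Genes around that pathway were higher in 10 µM cells at 24 h and less clearly so at 48 h, where 7 of 10 were higher and their median was 0.03 once mitochondrially encoded genes were left out of the scale. All 10 expressed SREBP2 regulators and uptake genes were higher in 10 µM cells at 24 h. Past 2-fold were 4 of them (40%, against 1.71% of all genes): INSIG1, STARD4, NPC1 and LPIN1. INSIG1, which retains SREBP in the ER, had 64.6 FPKM in 10 µM cells and 28.8 FPKM in 5 µM cells at 24 h, and 78.4 and 43.2 FPKM at 48 h. TMEM97, a regulator of NPC1, was past 2-fold lower at 48 h, with 11.5 FPKM in 10 µM cells and 29.99 FPKM in 5 µM cells. The sterol exporter gene ABCG1, a target of the oxysterol receptor LXR, was past 2-fold higher at both times (1.28 and 1.71), and ABCA1, another such target, had 1.09 at 24 h and 0.55 at 48 h. NR1H3, which encodes LXRα, was lower in 10 µM cells, with 7.11 against 17.8 FPKM at 24 h and 4.15 against 7.88 FPKM at 48 h.

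**Figure D3:**
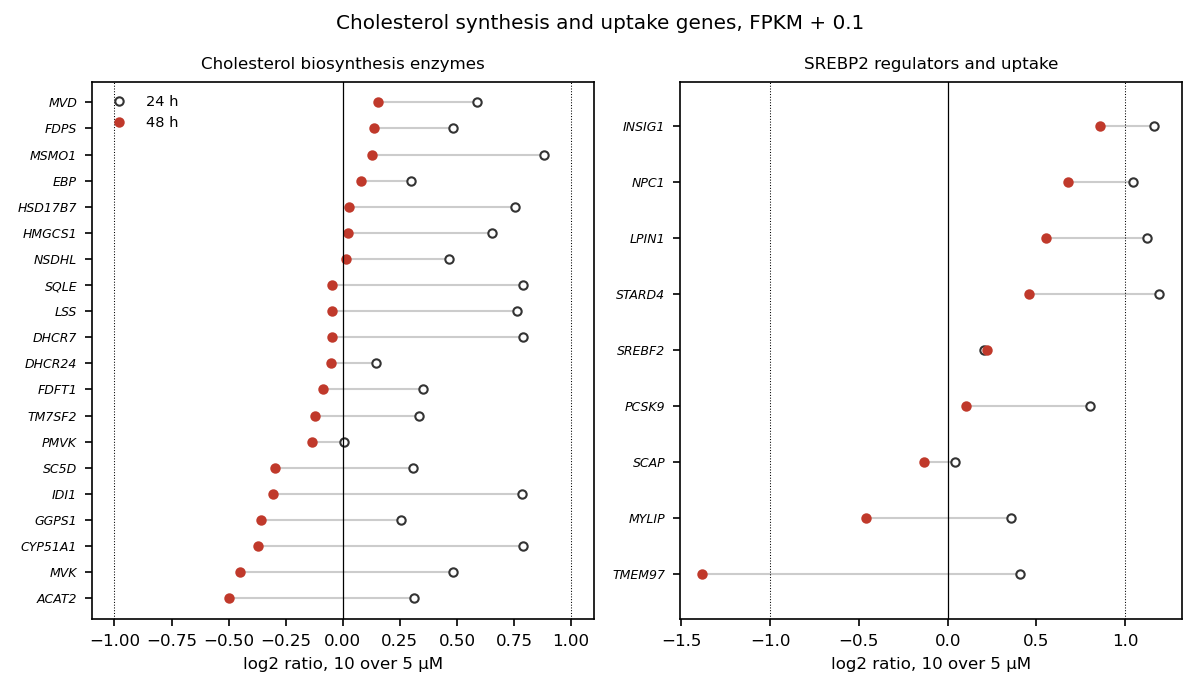
The x axis is the log2 ratio of FPKM + 0.1 in 10 µM over 5 µM cells for each enzyme (left) and each regulator or uptake gene (right), with open circles at 24 h and filled circles at 48 h. Each list has 1 member that is not drawn, every enzyme drawn lies above 0 at 24 h, and 7 do at 48 h.

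Cell cycle genes were lower in 10 µM cells, a little at 24 h and past 2-fold for most mitotic genes at 48 h. Of 48 DNA replication and S phase genes, all expressed, 47 were lower at 24 h with none past 2-fold, and 46 were lower at 48 h with 21 past 2-fold, 43.8% against 9.10% of all genes. The medians were -0.32 and -0.89. Among the 41 genes of mitosis and G2/M, 40 sat lower at 24 h with none past 2-fold, and all 41 did at 48 h with 38 past 2-fold (92.7%). Their medians were -0.33 and -1.49. At 24 h 66.8% of all genes were lower too. The 24 h medians lay -0.19 (replication) and -0.20 (mitosis) from the median of all genes. Both are within 0.24, the typical single gene's distance between the vehicle libraries of 48 and 24 h. That distance does not measure the spread of a list median. KIF20A, a mitotic kinesin, had 13.9 FPKM in 10 µM cells and 19.9 FPKM in 5 µM cells at 24 h, and 2.78 and 14.96 FPKM at 48 h. CCNB1 (cyclin B1), which drives entry into mitosis, had 10.7 and 36.4 FPKM at 48 h, and the proliferation marker MKI67 had 10.9 and 32.5 FPKM. The 5 µM library sat nearer to the vehicle than to 10 µM for these genes at 48 h, with the vehicle at 38.8 FPKM of CCNB1 and 41.5 FPKM of MKI67. MCM10, a replication initiation factor, had 14.4 FPKM in vehicle cells, 7.37 FPKM in 5 µM cells and 1.72 FPKM in 10 µM cells, lower at each dose. CDC25B (-0.22), E2F1 (0.08) and CDC6 (-0.32) were exceptions that differed little at 48 h. A lower share of cycling cells and less mRNA per cycling cell cannot be told apart in bulk RNA.

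Of 22 DNA repair and checkpoint genes 13 were past 2-fold lower at 48 h (59.1%, against 9.10% of all genes), with a median of -1.11. BARD1, the partner of BRCA1, was past 2-fold lower at both times, but at 24 h its 5 µM library stood apart: 3.17 FPKM in vehicle cells, 11.7 FPKM in 5 µM cells and 3.39 FPKM in 10 µM cells. GRIP1, a scaffold protein gene, had the same form at 24 h with 3.12, 8.23 and 2.63 FPKM in vehicle, 5 µM and 10 µM cells. For both, the 10 µM and vehicle libraries were close and the 5 µM library set the 24 h ratio, and with 1 library the dose and the library cannot be told apart. CDKN1A (p21), the CDK inhibitor induced by p53 and by stress, went the opposite way from the cell cycle genes, with 328 and 201 FPKM at 24 h, and 373 and 141 FPKM at 48 h. Of 16 expressed other p53 targets 7 were higher at 48 h and 9 lower, with a median of -0.23. None was past 2-fold higher and 2 were past 2-fold lower (12.5%, against 9.10% of all genes), with ZMAT3 the lowest at -1.34. TNFRSF10B, a death receptor, was the highest of them at both times (0.77 and 0.80).

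Promoters of both classes are shown because textbook regulators of S phase (E2F) and of mitosis (DREAM and MuvB complexes) read different letters in them. E2F sites were searched as TTTGGCGC or TTTCCCGC, and stood in 19 of 42 windows of the replication list and in 2.31% of all windows. The CHR element of mitotic genes was searched as TTTGAA, and stood in 24 of 35 windows of the mitosis list and in 15.4% of all windows. MCM6 and CDC20 have 2 matches, of which the one nearer to the start is shown. Capitals mark the match in MCM6, a subunit of the replicative helicase (chr2:135876486-135876573, minus strand), in POLA1, the DNA polymerase α subunit (chrX:24693741-24693828, plus strand), in PLK1, a mitotic kinase (chr16:23678820-23678905, plus strand), and in CDC20, an activator of the anaphase-promoting complex (chr1:43358876-43358961, plus strand).
MCM6: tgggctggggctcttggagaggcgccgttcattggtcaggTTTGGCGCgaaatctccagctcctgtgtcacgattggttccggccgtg
POLA1: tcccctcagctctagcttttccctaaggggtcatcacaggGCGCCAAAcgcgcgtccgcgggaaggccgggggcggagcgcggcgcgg
PLK1: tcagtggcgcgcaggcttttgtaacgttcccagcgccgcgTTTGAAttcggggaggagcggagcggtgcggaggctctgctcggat
CDC20: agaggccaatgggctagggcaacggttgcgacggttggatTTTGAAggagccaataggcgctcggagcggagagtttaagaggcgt
In 10 µM cells MCM6 had 7.76 FPKM at 48 h, against 14.1 FPKM in 5 µM cells, and POLA1 had 1.13 against 2.31 FPKM. PLK1 had 45.6 against 126 FPKM and CDC20 41.5 against 101 FPKM. On the log2 scale with the pseudocount the E2F genes shown had -0.86 and -0.97, just within 2-fold, and the CHR genes -1.46 and -1.27, past it. Among genes past 2-fold lower at 48 h with a window, 153 of 820 held the CHR letters (18.7%), against 30 of 396 of those past 2-fold higher (7.58%) and 9.44% of the 9373 expressed genes with a window. The E2F letters stood in 40 of the 820 (4.88%), in 4 of the 396 (1.01%) and in 3.88% of the 9373, so their share was nearer to that of expressed genes.

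**Figure D4:**
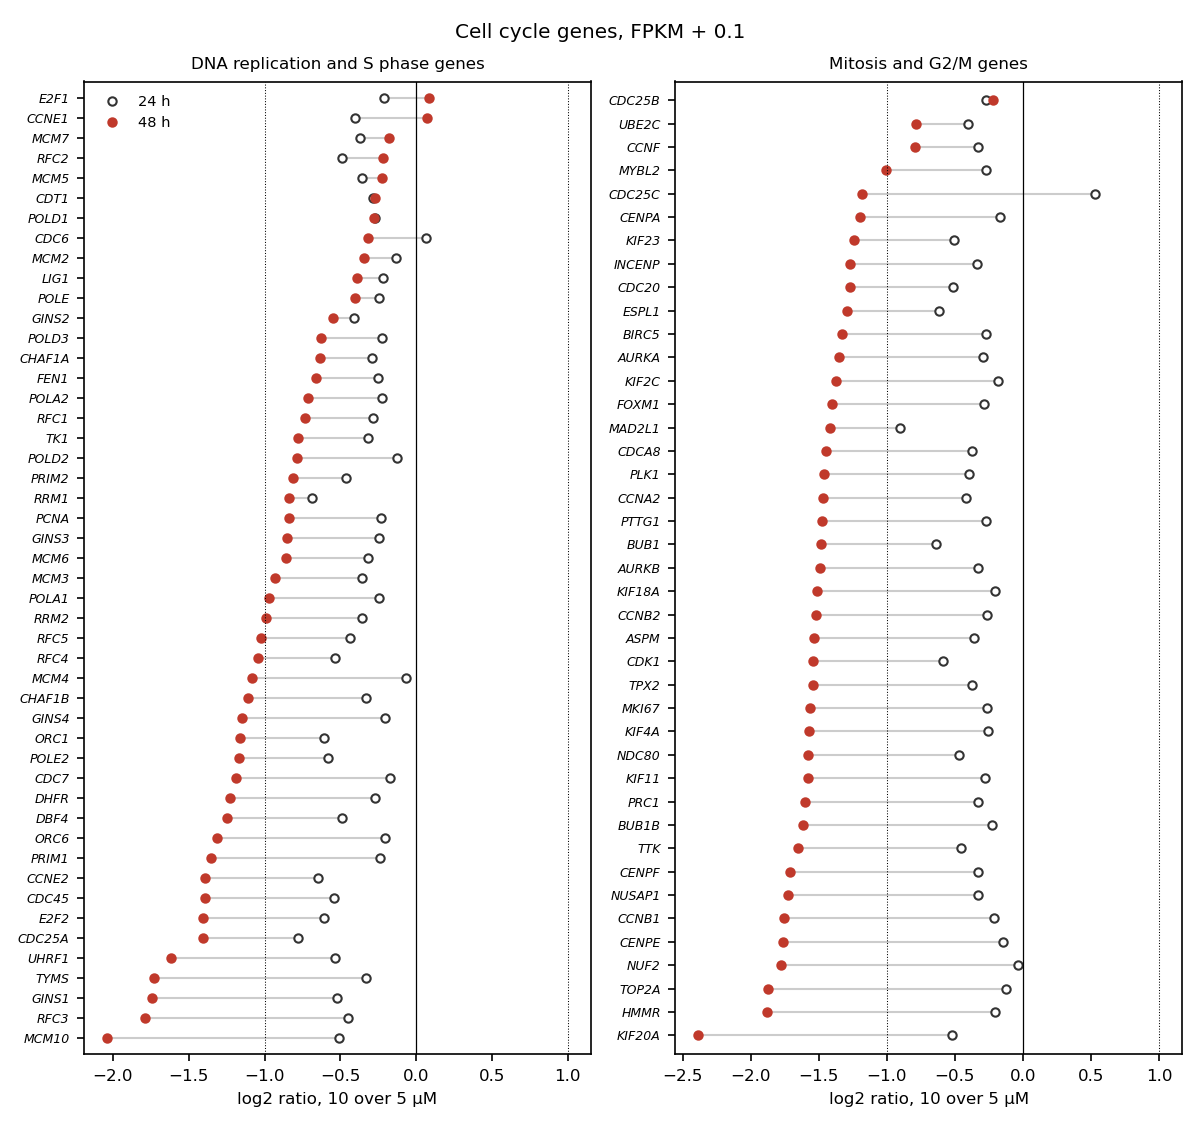
The x axis is the log2 ratio of FPKM + 0.1 in 10 µM over 5 µM cells for each replication gene (left) and each mitosis gene (right), with open circles at 24 h, filled circles at 48 h and dotted lines at 2-fold. At 48 h 21 of 48 replication genes and 38 of 41 mitosis genes lie past 2-fold lower.

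Cell cycle and apoptosis genes that were assayed as RORγ targets were chosen with these libraries in hand, so both lists are no independent evidence of their direction. The 12 cell cycle genes were all lower in 10 µM cells at both times, with medians of -0.29 and -1.02. Of all genes 66.8% were lower at 24 h and 58.8% at 48 h. Past 2-fold lower at 48 h were 6 of the 12 (50%, against 9.10% of all genes). The 6 apoptosis genes were all higher at both times, with medians of 0.86 and 1.45. BBC3 (PUMA), a BH3-only activator of BAX, had 10.0 FPKM in 10 µM cells and 3.67 FPKM in 5 µM cells at 24 h, and 20.9 and 3.34 FPKM at 48 h. BNIP3, a mitophagy receptor that HIF induces, had 3.45 and 1.08 FPKM at 24 h, and 13.8 and 1.61 FPKM at 48 h. Of 15 expressed BH3-only and other pro-apoptotic genes 10 were higher at 48 h, 5 past 2-fold (33.3%, against 4.74% of all genes), and none was past 2-fold lower, with a median of 0.40. The lower members included BCL2L11 (BIM) at -0.22, PMAIP1 (NOXA) at -0.06 and BAK1 at -0.58 at 48 h. BCL2A1, an anti-apoptotic NF-κB target, was past 2-fold higher at both times (1.38 and 2.40), though at levels of at most 2.32 FPKM. RORA, a nuclear receptor of the circadian clock, had 0.19 FPKM in 10 µM cells and 0.15 FPKM in 5 µM cells at 24 h, and 2.31 and 0.81 FPKM at 48 h.

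Keratins and cornification genes split. All 15 expressed keratins were lower in 10 µM cells at 24 h, 3 past 2-fold, and 10 were lower at 48 h, 4 past 2-fold. Of all genes 66.8% were lower at 24 h, 2.05% past 2-fold, and 58.8% at 48 h, 9.10% past 2-fold, so the 10 of 15 at 48 h lay near that share. KRT4, a keratin of non-cornified stratified epithelium, held the lowest named ratio at both times, with 5.72 FPKM in 10 µM cells and 25.2 FPKM in 5 µM cells at 24 h, and 0.20 and 9.87 FPKM at 48 h. KRT14 and KRT5, the keratin pair of the basal layer, had 2.50 and 296 FPKM in 10 µM cells and 14.2 and 648 FPKM in 5 µM cells at 48 h. KRT6A had 32.3 FPKM in 10 µM cells and 145 FPKM in 5 µM cells at 48 h, while KRT17, also of stressed and basal epithelium, was level (0.16). The SPRR1 and SPRR2 small proline-rich proteins, which cross-link into the cornified envelope, were within 2-fold at 24 h and past 2-fold higher in 10 µM cells at 48 h. SPRR2E had 101 FPKM in 10 µM cells and 80.3 FPKM in 5 µM cells at 24 h, and 1194 and 38.5 FPKM at 48 h. SPRR2A had 2589 and 393 FPKM at 48 h, and SPRR1B had 284 and 46.0 FPKM. These genes are neighbours in the epidermal differentiation complex of chromosome 1, where the alarmin genes S100A8 (0.03) and S100A9 (-0.11) and the envelope gene IVL (involucrin, 0.05) had ratios near 0.

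The SPRR1B and SPRR2A windows are shown because AP-1 is a known regulator of this complex, and its part in these differences was not tested. Capitals mark the AP-1 letters TGAGTCA, 141 bases before the start of SPRR1B (chr1:153031022-153031108, plus strand) and 197 before that of SPRR2A (chr1:153057663-153057749, minus strand).
SPRR1B: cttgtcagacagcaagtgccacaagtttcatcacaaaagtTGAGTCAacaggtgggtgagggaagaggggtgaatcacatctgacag
SPRR2A: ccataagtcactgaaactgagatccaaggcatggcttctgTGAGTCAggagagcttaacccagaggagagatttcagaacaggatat
The letters stood in 6 of 17 windows of the cornification list and in 4.92% of all windows, and the 6 include IVL and S100A2, which were not higher past 2-fold. Among genes past 2-fold higher at 48 h, 33 of 396 windows held them (8.33%), against 22 of 820 of those past 2-fold lower (2.68%).

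Other single genes were also lower at 10 µM. WNT11, a non-canonical Wnt ligand, had 3.60 FPKM in 10 µM cells and 13.0 FPKM in 5 µM cells at 24 h, and 2.53 and 7.13 FPKM at 48 h. VGLL1, a TEAD cofactor of basal-like breast cancer, had 5.35 and 15.3 FPKM at 24 h, and 2.39 and 10.9 FPKM at 48 h. MOGAT2, an enzyme of triglyceride synthesis, had 2.68 and 8.73 FPKM at 24 h, and 0.49 and 4.80 FPKM at 48 h. All 3 were past 2-fold lower in 10 µM cells at both times. ATP6V1B1, a subunit of the vacuolar proton pump, SLC1A3, a glutamate transporter, and IL22RA2, the soluble antagonist of IL-22, were past 2-fold lower at both times, with 48 h ratios of -3.07, -2.52 and -3.38. ID1, ID2 and ID3, targets of BMP signalling, had 48 h ratios of -1.10, -1.31 and -1.47. Their list of TGF-β, BMP and YAP response genes held both directions at 48 h, with 6 of 15 expressed genes higher and 9 lower. Past 2-fold lower were 4 (26.7%, against 9.10% of all genes), and INHBA was past 2-fold higher (1.92). The list median was -0.19, near that of all genes (-0.12).

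Some interferon-stimulated genes were lower in 10 µM cells at 48 h. Of 26 expressed genes 7 were past 2-fold lower at 48 h (26.9%, against 9.10% of all genes), and none was past 2-fold at 24 h, where 2.05% of all genes were lower. IFIT1, IFIT2 and IFIT3, neighbours on chromosome 10 whose proteins bind viral RNA, had 1.05, 1.75 and 2.24 FPKM in 10 µM cells and 6.72, 9.28 and 12.2 FPKM in 5 µM cells. PSMB9, an immunoproteasome subunit, was also lower in 10 µM cells at 48 h, with 12.4 FPKM and 38.4 FPKM in 5 µM cells. The class I light chain gene B2M (0.25) and the interferon-induced IFI6 (0.88) were not lower, so the list held both directions.

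Housekeeping genes were not level between the doses, and respiratory genes differed by genome and time. GAPDH had 5432 FPKM in 10 µM cells and 6041 FPKM in 5 µM cells at 24 h, and 6229.5 and 4319 FPKM at 48 h, while ACTB had ratios of -0.40 and -0.29. Cytosolic ribosomal protein genes had medians of -0.19 and 0.05. The 13 mitochondrially encoded genes had a median of 0.16 at 24 h, with 11 higher in 10 µM cells, and of -0.46 at 48 h, with all 13 lower. Of 27 nuclear-encoded respiratory chain subunits 25 were lower at each time, with medians of -0.26 and -0.46, where 66.8% and 58.8% of all genes were lower. The nuclear and mitochondrial medians had opposite signs at 24 h and the same sign at 48 h. At 24 h the nuclear median lay only -0.12 from that of all genes. That is within 0.24, the typical single gene's distance between the vehicle libraries, which does not measure the spread of a list median.

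**Figure D5:**
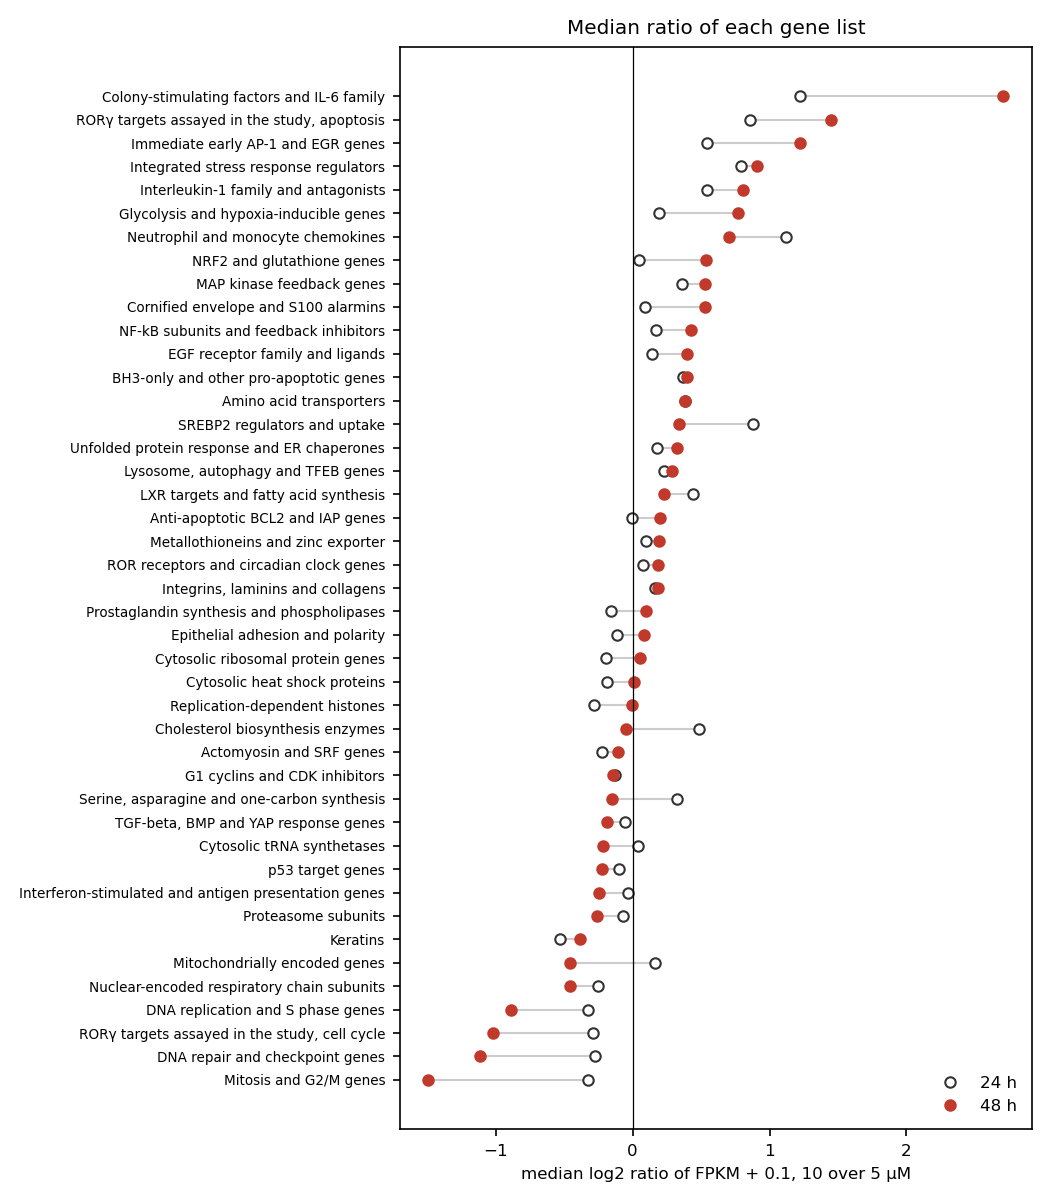
The x axis is the median log2 ratio of FPKM + 0.1 in 10 µM over 5 µM cells over the expressed genes of each list, with open circles at 24 h and filled circles at 48 h. Colony-stimulating factors lie highest at 48 h (2.71) and mitosis genes lowest (-1.49), and cholesterol biosynthesis enzymes lie above 0 at 24 h (0.48) and near 0 at 48 h (-0.05). Over the colony-stimulating factor list members above 1 FPKM in both 48 h libraries the median is 1.37, which is not drawn.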

How the data were processed

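RNA-seq of HCC70 cells was analysed in 4 treated libraries, with 2 vehicle libraries for context. Libraries were made from 1 µg of total RNA and sequenced on a HiSeq 2000. The deposited FPKM were made by the authors with Cufflinks after alignment by BWA and Bowtie to the hg38 assembly (versions not given in the sources used here). The files hold FPKM to 2 decimals and no read counts, so depth is unknown. Products of low FPKM and exon length fell within 0.1 of a whole fragment for at most 38.6% of values, so counts were not recovered and no counting interval is given. Symbols with several Ensembl IDs were summed (70 IDs), and 240 rows that repeat an ID under another symbol were used once. A gene entered a pair above 1 FPKM in either library, ratios used a pseudocount of 0.1 FPKM (which understates the change of low genes), and 2-fold was the call. No values were tested, since each condition has 1 library. No library pair shared more than 0.39% of its values.

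Genes were named by rule: per time, among genes above 5 FPKM in either library, the 12 highest and 12 lowest ratios; the 10 highest and lowest past 2-fold at both times; extreme and best-known members of 48 gene lists (843 genes, 1 unmatched); and GAPDH and ACTB. Some genes that the rule names are not reported here. Multicopy genes, small RNAs and readthroughs were counted but not described. Members and lists were chosen with earlier results of these data known. Gene positions are from GENCODE v44, and promoter windows from RefSeq (GRCh38.p14), matched by symbol for 9442 of 11866 genes at 24 h and 9373 of 11781 at 48 h. Motifs were searched on both strands, and overlaps between motifs were not removed. Scripts ran in Python 3.11.15 (pandas 2.3.3, numpy 2.4.6, scipy 1.17.1, and matplotlib 3.10.9 for plots), and the counting script was tested on simulated data. Alternatives were pseudocounts, filters, thresholds, centring on the median or a trimmed mean, rescaling without mitochondrially encoded genes, list means in place of medians, and the highest entry of a symbol. Libraries of C4-2B prostate cells were not used here.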

Additional observations from a re-analysis of the deposited data

Results flagged for a closer look

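Some results stood out because the 10 against 5 µM ratio pointed one way at 24 h and the other way at 48 h, or on the other side of the median of all genes. Each time is 1 pair of libraries, and these differences were not tested. The median of mitochondrially encoded genes was 0.16 in the 24 h pair and -0.46 in the 48 h pair. Replication-dependent histone genes had medians of -0.28 and -0.0039, and the luminal and ERBB breast markers, over 4 expressed genes, had -0.42 and 0.0473. AKR1B10, an aldo-keto reductase, had 25.9 FPKM in 10 µM cells and 42.1 FPKM in 5 µM cells at 24 h (log2 ratio -0.70), and 47.7 and 23.5 FPKM at 48 h (1.02). IFIT2 had ratios of 0.41 at 24 h and -2.34 at 48 h, and TMEM97 of 0.41 and -1.38.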

How the results depend on the processing

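No paired analysis was possible because the labels give no replicate numbers and the comparison rests on no test. A fit that takes the 24 and 48 h pairs as repeats was not run. The call of 2-fold gave 446 genes at 24 h, 1631 at 48 h and 160 in the same direction at both times. With a pseudocount of 1 FPKM these were 180, 977 and 67, without a filter 1508, 2933 and 386, above 5 FPKM in either library 157, 923 and 68, at 1.5-fold 1526, 3861 and 753, and at 3-fold 138, 496 and 24. Above 1 FPKM in both libraries they were 219 at 24 h and 85 at both times. In every one of these settings there were more genes at 48 h than at 24 h. Other settings kept the counts within 1.5 times, among them protein-coding genes only (325, 1472 and 140), an alternative chosen after seeing the data. Centring on a trimmed mean gave 623 genes higher and 951 lower at 48 h, and centring on the median gave 114 higher and 43 lower at both times, against 82 and 78. Rescaling without the mitochondrially encoded genes left 2331 genes at 48 h but changed their balance to 323 higher and 2008 lower (13.9% higher, against 34.3%), since it moved every ratio at 48 h by -0.31, and at 24 h by 0.04. Under it the 48 h median of lysosome and autophagy genes turned to -0.0218, that of the unfolded protein response genes became 0.01 and that of the NRF2 genes 0.23, while chemokines kept 0.40, stress response genes 0.59 and mitosis genes -1.80. Smaller 48 h medians also crossed 0: prostaglandin genes to -0.21, metallothioneins to -0.11, LXR targets to -0.08, epithelial adhesion genes to -0.23, integrins and laminins to -0.12, clock genes to -0.11, anti-apoptotic genes to -0.11, heat shock proteins to -0.30, ribosomal proteins to -0.26 and luminal markers to -0.26. SREBP2 regulators came to 0.03. Fibroblast and endothelial markers turned to -0.0688 at 48 h without a filter. Relative to the median of all genes, 24 of 48 list medians at 24 h and 31 at 48 h lay further away than 0.24. That is the typical single gene's distance between the vehicle libraries, and it does not measure the spread of a list median. No setting changed these numbers of lists by over 1.5 times.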

Other observations

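Genes not described above also differed between the doses. CYP3A5, a drug-metabolising P450, had 4.49 FPKM in 10 µM cells and 2.13 FPKM in 5 µM cells at 24 h, and 33.3 and 1.98 FPKM at 48 h. CYP24A1, which inactivates vitamin D hormone, had 30.2 and 9.74 FPKM at 24 h, and 43.3 and 17.6 FPKM at 48 h, higher in 10 µM cells at both times. GPNMB, a transmembrane glycoprotein gene of the lysosomal TFEB and MITF program, had 12.9 and 2.56 FPKM at 24 h, and 19.2 and 11.3 FPKM at 48 h, so its larger ratio was at 24 h. ULK1, the kinase that starts autophagy, had 13.2 and 8.89 FPKM at 24 h, and 27.6 and 6.93 FPKM at 48 h, with its larger ratio at 48 h.

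Among adhesion genes, ITGA5, the fibronectin receptor subunit, had 234 FPKM in 10 µM cells and 76.0 FPKM in 5 µM cells at 48 h. TAGLN, an actin-binding protein gene, and CCN1, a YAP target, were past 2-fold lower, with 48 h ratios of -1.81 and -1.48. Heat shock protein genes stayed near the median of all genes, at -0.19 and 0.01, with HSPA1B alone past 2-fold at 48 h (1.02), a gene almost identical to HSPA1A. In the clock list NR1D1 (1.18) and RORA (1.41) were past 2-fold higher at 48 h, and PER3 (-1.56) and BHLHE41 (-1.64) past 2-fold lower.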
